A study of Mus musculus with 6 samples.

Results

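Ovulatory response genes are genes whose transcription in the follicle follows the luteinizing hormone surge. The 10 genes Runx1, Runx2, Edn2, Cebpb, Ptgs2, Has2, Tnfaip6, Sult1e1, Snap25 and Btc were taken by symbol from a table of 19423 genes, and all 10 were found. Their RNA was sequenced from whole ovary of the strain balb/c-nude, whose mice lack a thymus and accept grafts of human cells. In 3 libraries the mice bore tumors, grown from subcutaneously placed cancer cells with the label MBA-MD-231, and 3 libraries came from control mice, all of day 80. No label says what the control mice received. In the treatment field the number that ends the cell name rises by 1 from each tumor library to the next, while the cell line field is the same in all. Both groups share the strain and the tissue; the labels give no estrous stage and no age beyond the day, and nothing in them ties a library to a named animal or litter. The p-values below rest on the spread among these libraries only, and that spread may be technical.

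At the end of follicle growth, luteinizing hormone acts on granulosa and theca cells and raises cyclic AMP, which switches on a short program of transcription factors. This program drives EGF-like growth factors, prostaglandin synthesis and a hyaluronan-rich matrix around the oocyte, and it ends with rupture of the follicle wall and formation of the corpus luteum. RUNX1, RUNX2 and C/EBPβ are transcription factors of this program, and endothelin-2 is a peptide made by granulosa cells for a short time around rupture.

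Libraries held between 18278614 and 18482073 estimated counts in tumor ovaries and between 18804610 and 19238900 in control ovaries. Levels below are CPM, the gene's count relative to its library's total after TMM scaling, unless another scale is named. The level of 3 counts, up to which a gene without any read may still be present, was 0.156 to 0.164 CPM; this limit covers counting error only. Along the first principal component, computed on log2 CPM and holding 52.1% of the variance, tumor replicate 1 lay at -34.6, among the control libraries at -42.8 to -5.23, while tumor replicates 2 and 3 lay apart at 49.6 and 75.1. On the second, with 28.8%, tumor replicate 1 stood apart at -66.5, where the other libraries lay between -6.25 and 39.8. Values without a library are given where they matter. Markers of granulosa cells and of oocytes were present in all 6 libraries; 1 of 7 and 3 of 6 rose, and none fell. Their summed levels lay between 2520 and 4377 CPM in tumor and between 3183 and 4095 CPM in control for granulosa cells, and between 427.3 and 543.8 CPM in tumor and between 284.3 and 373.8 CPM in control for oocytes.

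Of the 10 genes, 3 fell in tumor ovaries, none rose, 4 did not pass the test and 3 were too low to be tested. None was higher at an unadjusted p under 0.05 or by DESeq2 either. Runx2 and Edn2 were at 15.0% and 14.0% of their control level, and Cebpb at 50.9%. The test was edgeR's quasi-likelihood F test over all 15787 genes that passed a filter on low counts, with Benjamini-Hochberg adjustment and a threshold of 0.05. In that comparison 3.91% of all genes tested fell, 3.80% rose and 7.71% changed in either direction. The filter asked for about 0.537 CPM in at least 3 libraries. Edn2, Ptgs2 and Tnfaip6 passed it only with the control libraries, all 3 of which were above that level for each gene. In tumor, 1 library was above it for Edn2, 1 for Ptgs2 and 2 for Tnfaip6. Counts and medians over the tested genes are therefore descriptions. The 10 genes were also chosen with earlier results of these data known, so setting them against all genes tests nothing. The median log2 fold change of the 7 tested genes was -1.43, against -0.02 over all genes tested. CPM of the groups did not overlap for 4 of the 10 genes, all lower in tumor, where 18.4% of all genes tested were lower and 19.8% higher without overlap. Unadjusted p was under 0.05 for 5 of the 7 genes, and for 31.0% of all genes tested. Of the 10 genes, 4 were lower with q under 0.05 in the authors' deposited table, where 7.30% of all genes with a q were. These were Runx1, with a log2 fold change of -1.33 and a q of 0.00737 in the authors' deposited table, and Runx2, Edn2 and Cebpb.

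**Figure D1:**
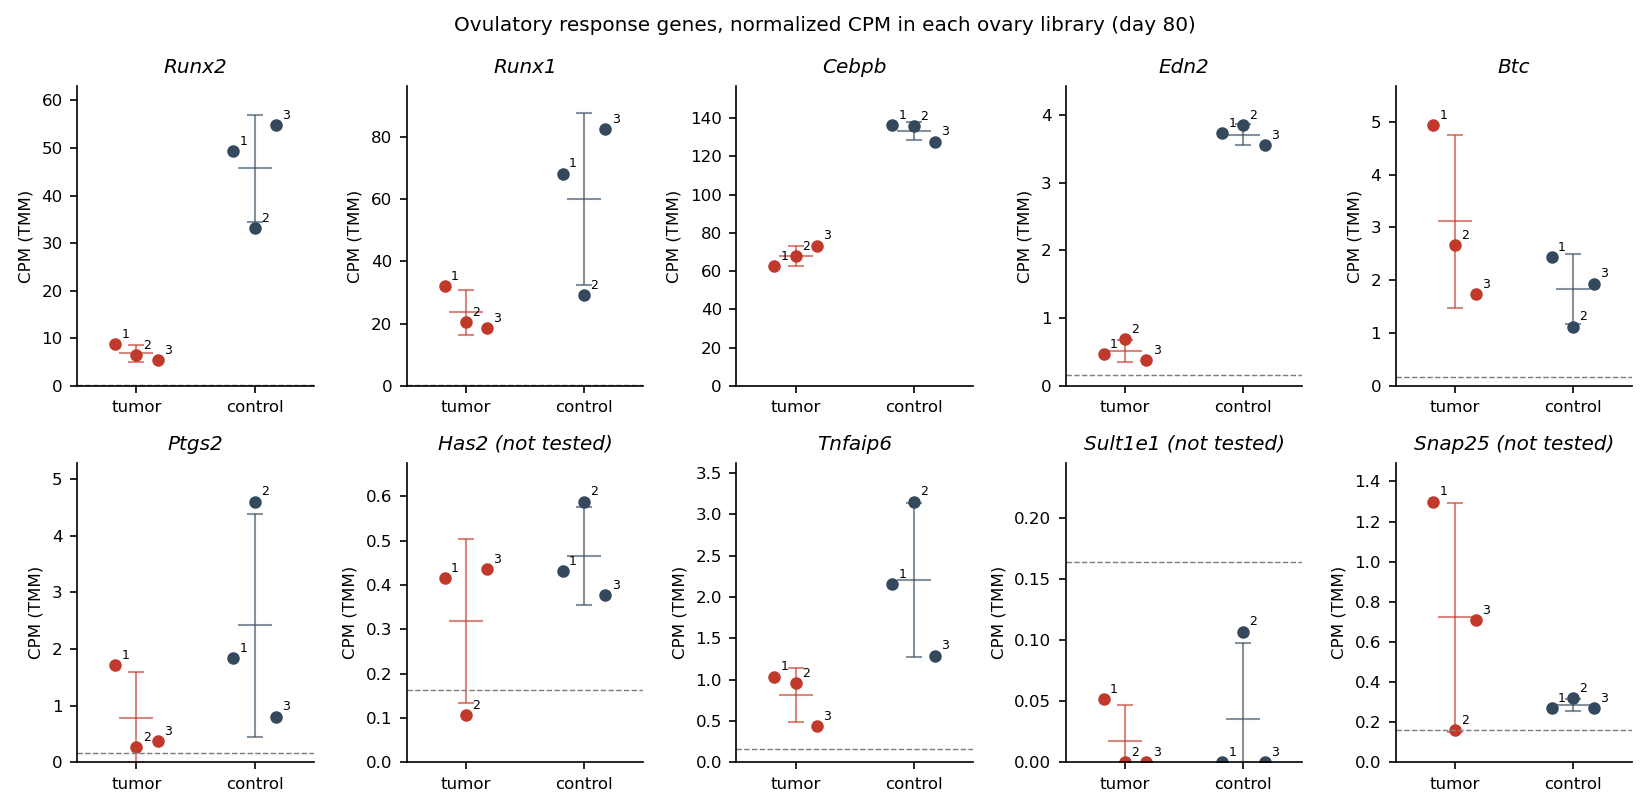
Normalized CPM of the 10 genes, one panel each, with tumor libraries left and control libraries right. Points are libraries with their replicate number, bars are mean and SD (n = 3), and the dashed line is the level of 3 counts. Runx2, Edn2, Cebpb and Tnfaip6 have no overlap between groups, and Sult1e1 lies below the dashed line in every library.

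Runx2, a Runt domain transcription factor best known from bone formation and also induced in granulosa cells after the luteinizing hormone surge, fell in tumor ovaries. Its level was 8.78, 6.45 and 5.34 CPM in tumor replicates 1, 2 and 3, against 49.3, 33.2 and 54.8 CPM in control replicates 1, 2 and 3. All tumor libraries lay far below the lowest control library, control replicate 2. The means were 6.86 ± 1.76 CPM in tumor and 45.7 ± 11.2 CPM in control (SD, n = 3 each). By edgeR, the log2 fold change was -2.74 ± 0.27 (SE) and the adjusted p 0.0245. The counts behind these values were 169.3, 121.3 and 98.1 in tumor and 911.9, 619.9 and 1018 in control. In these ovaries of many cell types, fewer cells of a type and less RNA per cell cannot be told apart.

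Runx1, the relative of Runx2 known from blood cell formation and likewise induced in periovulatory granulosa cells, did not pass the test. It stood at 32.0, 20.5 and 18.5 CPM in tumor replicates 1, 2 and 3, against 68.2, 29.1 and 82.5 CPM in control replicates 1, 2 and 3. Control replicate 2 lay below tumor replicate 1, so the groups overlapped, while control replicates 1 and 3 lay above all other libraries. By edgeR, the log2 fold change was -1.34 ± 0.43 (SE) and the adjusted p 0.0990. Without control replicate 2 it was -1.62 and passed, with an edgeR adjusted p of 0.0325, and by DESeq2 it passed with all 6 libraries, with an adjusted p of 0.00602.

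Both Runx genes have a distal and a proximal promoter, which give proteins with different first residues. The deposited transcript estimates were summed by start, with GENCODE starts within 2000 bases counted as 1 promoter. For Runx2 the proximal start had estimated counts of 96.7, 81.5 and 49.5 in tumor replicates 1, 2 and 3 and 412.4, 359.6 and 454.1 in control replicates 1, 2 and 3. The distal start had 72.6, 39.7 and 48.6 in tumor and 499.5, 260.3 and 563.5 in control. Transcripts of both starts were therefore lower in every tumor library than in every control library. The distal share of Runx2 was 42.9%, 32.8% and 49.5% in tumor replicates 1, 2 and 3 and 54.8%, 42.0% and 55.4% in control replicates 1, 2 and 3, with overlap between the groups.

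For Runx1 the distal share was 41.1%, 41.3% and 61.4% in tumor replicates 1, 2 and 3 and 20.5%, 33.4% and 31.0% in control replicates 1, 2 and 3. Each tumor share lay above each control share. The proximal start had estimated counts of 362.5, 226.1 and 130.8 in tumor and 1003, 362.3 and 1058 in control, where tumor replicate 1 and control replicate 2 were nearly equal. The distal start had 252.5, 158.9 and 207.8 in tumor and 258.2, 181.8 and 475.0 in control, with overlap. These shares were not tested, since single-end reads of 50 bases seldom tell such transcripts apart and the estimates carry an error that the files do not give.

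**Figure D2:**
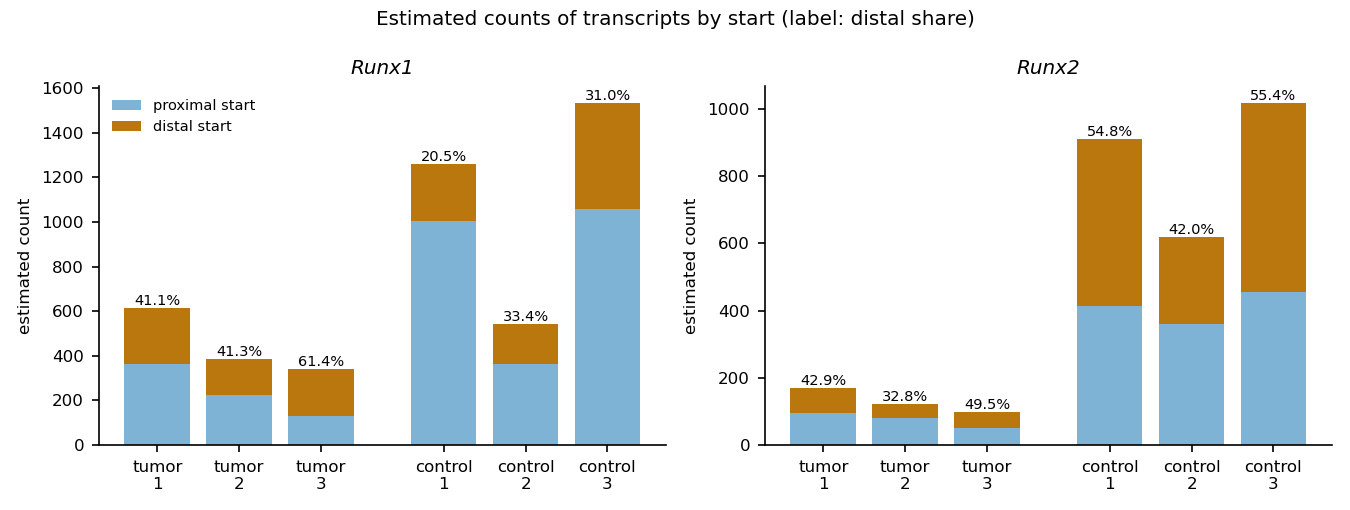
Estimated counts of Runx1 and Runx2 transcripts per library, tumor libraries left, split by proximal and distal start, with the distal share in percent above each bar. Runx2 is lower from both starts in all tumor libraries, and the distal share of Runx1 is 41.1% to 61.4% in tumor and 20.5% to 33.4% in control.

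Runx1 lies on chromosome 16, between 92601466 and 92826074, and Runx2 on chromosome 17, between 44495987 and 44814797, in the deposited positions of build GRCm38.p6. The deposited table lists both on the plus strand and GENCODE M21 on the minus strand, and RefSeq's promoter table also has them on the minus strand. The strands of the other 8 genes were equal in both sources. In GENCODE M21, 519 bases or 5.87% of the Runx2 exons are shared with Runx2os1 and 106 bases or 0.88% of the Runx1 exons with Gm26626, both on the other strand and not analysed here. The RefSeq promoters by the distal starts are shown because the 2 genes share a feature there. They are given on the gene's own strand, 250 bases before to 50 after the RefSeq promoter start. RUNX motifs (TGTGGT, or ACCACA on the other strand) and the C/EBP motif (TTGCNNAA) are in capitals.
Runx2, chr17:44814578-44814877, minus strand: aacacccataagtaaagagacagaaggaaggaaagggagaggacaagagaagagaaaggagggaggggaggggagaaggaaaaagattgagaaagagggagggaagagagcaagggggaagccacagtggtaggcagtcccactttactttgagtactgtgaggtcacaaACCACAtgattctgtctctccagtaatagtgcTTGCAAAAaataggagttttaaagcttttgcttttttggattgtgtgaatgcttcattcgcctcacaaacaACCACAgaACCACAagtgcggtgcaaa
Runx1, chr16:92826025-92826324, minus strand: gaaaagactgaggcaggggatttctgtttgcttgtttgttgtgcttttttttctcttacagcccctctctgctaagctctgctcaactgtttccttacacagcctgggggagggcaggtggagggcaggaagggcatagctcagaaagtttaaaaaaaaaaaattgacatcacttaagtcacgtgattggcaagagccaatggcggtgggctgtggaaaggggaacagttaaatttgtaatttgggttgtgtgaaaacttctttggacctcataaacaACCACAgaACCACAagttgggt
Each holds a closely spaced pair of ACCACA just after the RefSeq promoter start, at positions 24 and 32 in Runx2 and 29 and 37 in Runx1. Positions are counted from that start, with negative values before it. For Runx1 that start is the deposited gene end, 92826074. For Runx2 it lies inside the gene, downstream of the GENCODE distal start at 44814797, so the pairs are not at like distances from the gene ends. Runx2 has another copy at -80 and the C/EBP motif TTGCAAAA at -48, both before the RefSeq promoter start but downstream of the GENCODE distal start. A motif match describes the letters only and does not show binding.

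Cebpb, the gene of C/EBPβ, which acts in granulosa cells downstream of luteinizing hormone and is needed for luteinization, fell by the smallest fold of the 3 genes. It stood at 62.6, 67.7 and 73.4 CPM in tumor replicates 1, 2 and 3, against 136.4, 135.8 and 127.8 CPM in control replicates 1, 2 and 3. The libraries of each group lay close together, far from the other group. Its means were 67.9 ± 5.41 CPM in tumor and 133.3 ± 4.79 CPM in control (SD, n = 3 each), with an edgeR log2 fold change of -0.97 ± 0.09 (SE) at an adjusted p of 0.0206. After a correction for GC content, added after seeing the data, the fold change was -0.61 with an edgeR adjusted p of 0.0401, and after one for gene length it was -0.74 with 0.0346.

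Cebpb is a single-exon gene on chromosome 2, from 167688915 to 167690432 in the deposited positions. Its 3 deposited transcripts had equal estimates in every library, so its protein forms cannot be told apart here. In GENCODE M21, 312 bases or 20.7% of its exon are shared with exons of Tmem189 on the other strand, and no strand setting is given in the sources used here. Tmem189 stood at 34.1, 35.3 and 35.5 CPM in tumor replicates 1, 2 and 3 and at 36.8, 43.0 and 36.3 CPM in control replicates 1, 2 and 3, with an edgeR adjusted p of 0.372 and a log2 fold change of -0.14. The Cebpb promoter is shown for the core letters of the cyclic AMP response element (TGACG, or CGTCA on the other strand), in capitals.
Cebpb, chr2:167688665-167688964, plus strand: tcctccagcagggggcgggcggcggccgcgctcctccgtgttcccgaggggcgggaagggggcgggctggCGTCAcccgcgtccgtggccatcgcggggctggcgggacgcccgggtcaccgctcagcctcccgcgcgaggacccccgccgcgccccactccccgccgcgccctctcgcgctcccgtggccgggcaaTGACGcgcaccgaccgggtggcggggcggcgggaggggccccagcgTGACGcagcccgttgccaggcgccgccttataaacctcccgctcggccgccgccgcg
It holds 3 such cores, at -180, -53 and -7, and no full element (TGACGTCA). The bases of this window are 80.7% G or C, against 45.3% in the Runx2 window.

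Edn2, the gene of endothelin-2, a peptide that contracts smooth muscle of the follicle wall at rupture, fell. Its fold and that of Runx2 were within 1 SE of each other, and in 8 of 19 alternatives Runx2 had the more negative log2 fold change. It stood at 0.468, 0.693 and 0.382 CPM in tumor replicates 1, 2 and 3, against 3.73, 3.85 and 3.55 CPM in control replicates 1, 2 and 3. The control libraries were nearly alike, and each tumor library was far below them but above the level of 3 counts. In counts these were 9, 13 and 7 in tumor and 69, 72 and 66 in control, so the tumor values carry a large counting error. The means were 0.514 ± 0.161 CPM in tumor and 3.71 ± 0.150 CPM in control (SD, n = 3 each), with an edgeR log2 fold change of -2.84 ± 0.31 (SE) at an adjusted p of 0.0259. On the log2(FPKM + 1) scale, which understates changes of low genes, the difference was -1.38.

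Edn2 lies on chromosome 4, from 120161206 to 120167360 on the plus strand, and its promoter is shown because it holds 1 RUNX motif, in capitals.
Edn2, chr4:120160956-120161255, plus strand: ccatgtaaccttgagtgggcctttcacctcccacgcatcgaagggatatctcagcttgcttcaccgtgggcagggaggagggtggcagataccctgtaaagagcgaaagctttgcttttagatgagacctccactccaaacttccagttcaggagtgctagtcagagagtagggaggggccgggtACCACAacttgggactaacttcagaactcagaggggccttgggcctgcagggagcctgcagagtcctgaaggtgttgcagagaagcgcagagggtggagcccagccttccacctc
The motif, ACCACA, lies at -65. No C/EBP motif and no core of the cyclic AMP response element was found in this window.

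Btc, the gene of betacellulin, one of the EGF-like growth factors that carry the luteinizing hormone signal from granulosa cells to the cumulus, was the only tested gene of the 7 with a positive fold change, and it did not pass. It stood at 4.94, 2.66 and 1.74 CPM in tumor replicates 1, 2 and 3, against 2.43, 1.12 and 1.94 CPM in control replicates 1, 2 and 3. Tumor replicate 1 was highest and the other tumor libraries lay on both sides of control replicate 1. The log2 fold change was 0.77 ± 0.48 (SE) with an edgeR adjusted p of 0.321, and it was 0.27 without tumor replicate 1.

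Ptgs2, the inducible cyclooxygenase that makes prostaglandins for ovulation, varied widely within the groups and did not pass. It stood at 1.71, 0.266 and 0.382 CPM in tumor replicates 1, 2 and 3, against 1.84, 4.60 and 0.807 CPM in control replicates 1, 2 and 3. Control replicate 2 was highest, and tumor replicate 1 lay among the control libraries. The log2 fold change was -1.60 ± 0.91 (SE) with an edgeR adjusted p of 0.282. It was -0.68 without control replicate 2 and -2.87 without tumor replicate 1, and neither passed. The promoter of Ptgs2 is shown because it was the only member promoter of the 9 with a RUNX motif, a C/EBP motif and the TGACG core, all in capitals.
Ptgs2, chr1:150099781-150100080, plus strand: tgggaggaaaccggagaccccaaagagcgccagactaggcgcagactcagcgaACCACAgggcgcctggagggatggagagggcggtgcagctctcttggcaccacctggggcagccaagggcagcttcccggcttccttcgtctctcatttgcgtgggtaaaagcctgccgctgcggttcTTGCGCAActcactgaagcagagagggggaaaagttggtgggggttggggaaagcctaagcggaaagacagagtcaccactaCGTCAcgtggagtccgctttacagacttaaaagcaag
The RUNX motif lies at -197, the C/EBP motif TTGCGCAA at -69 and the core at 14.

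RefSeq promoters were at hand for 8 of the 10 genes, 9 promoters in all. A RUNX motif was in 4 of the 9 promoters, each of a different gene, and in 16.8% of the 32851 promoters of the table, counted on both strands. The C/EBP motif was in 2 of the 9 promoters and in 10.8% of all promoters, and the TGACG core in 3 of the 9 and in 20.8%. The full cyclic AMP response element, which contains the core, was in 1.79% of all promoters and in none of the 9. The motif counts of so few genes were not tested.

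Has2 and Tnfaip6 act in the cumulus matrix. HAS2 is a hyaluronan synthase, and the product of Tnfaip6, also called TSG-6, links hyaluronan to heavy chains from plasma. Tnfaip6 stood at 1.04, 0.959 and 0.436 CPM in tumor replicates 1, 2 and 3, against 2.16, 3.16 and 1.29 CPM in control replicates 1, 2 and 3. The groups did not overlap, though tumor replicate 1 and control replicate 3 lay close. Its log2 fold change was -1.43 ± 0.47 (SE) with an edgeR adjusted p of 0.102, and it did not pass in any of 19 alternatives.

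Has2 was near the limit of detection, with counts of 8, 2 and 8 in tumor and 8, 11 and 7 in control. These were 0.416, 0.107 and 0.436 CPM in tumor replicates 1, 2 and 3 and 0.432, 0.588 and 0.377 CPM in control replicates 1, 2 and 3. Tumor replicate 2 lay below the level of 3 counts, and the groups overlapped. Has2 was not tested with the filter, and without it its log2 fold change was -0.54 ± 0.58 (SE) with an edgeR adjusted p of 0.596.

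Sult1e1, the estrogen sulfotransferase that inactivates estradiol, was not detected above the limit in any library. It had 1 read in tumor replicate 1 and 2 reads in control replicate 2, and 0 in the other libraries. Both groups thus lay under the level of 3 counts, and no fold is given.

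Snap25, a SNARE protein of vesicle fusion known from neurons and also induced in granulosa cells at ovulation, was low in both groups. It stood at 1.30, 0.160 and 0.709 CPM in tumor replicates 1, 2 and 3, against 0.270, 0.321 and 0.269 CPM in control replicates 1, 2 and 3. Control libraries held about 5 to 6 reads each, and the tumor libraries spread on both sides of them, with 24.9, 3.16 and 12.9. It was not tested with the filter, and without it the log2 fold change was 1.31 ± 0.71 (SE) with an edgeR adjusted p of 0.301. The transcript estimates placed these few reads in different transcripts from library to library. Markers of nerve and neuroendocrine cells summed to between 116.0 and 123.6 CPM in tumor and between 110.1 and 119.7 CPM in control.

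**Figure D3:**
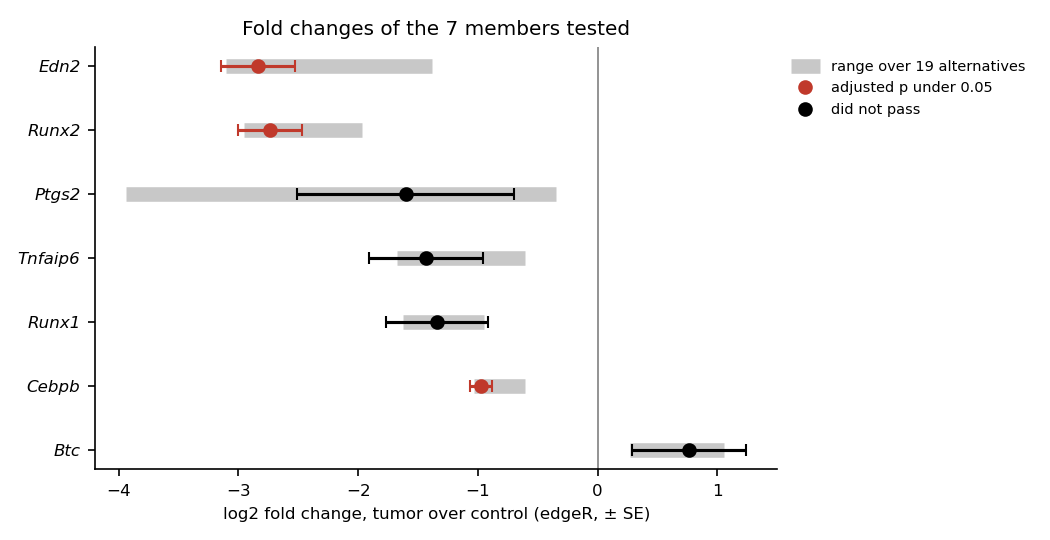
Log2 fold changes, tumor over control, of the 7 tested genes by edgeR, with SE as error bars and the range over 19 alternatives as grey bands. Edn2, Runx2 and Cebpb passed the threshold, and no band crosses 0. The ends of the bands near 0 for Edn2, Runx2, Runx1, Tnfaip6 and Ptgs2 come from the log2(FPKM + 1) scale.

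The fold changes of the 3 genes that fell moved little when libraries were left out, but their calls did not last. With 1 library left out, the log2 fold change lay between -2.95 and -2.55 for Runx2, between -3.11 and -2.66 for Edn2 and between -1.03 and -0.92 for Cebpb. All 3 passed without tumor replicate 1, with edgeR adjusted p of 0.0149, 0.0233 and 0.0149 for Runx2, Edn2 and Cebpb, and without control replicate 2. None of the 3 passed without tumor replicate 2 or 3 or control replicate 1 or 3, where their adjusted p lay between 0.0586 and 0.136 and where at most 5 of all genes tested passed.

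Set side by side on a per-length scale, the 10 genes spanned a wide range of levels. On the authors' TPM scale, which divides by transcript length, Cebpb was highest, at 96.4 to 107.9 TPM in tumor and 172.2 to 191.6 TPM in control. Runx1 followed with 6.53 to 11.3 TPM in tumor and 9.20 to 24.8 TPM in control. Runx2 came next in both groups by its mean, with 1.94 to 3.39 TPM in tumor and 11.7 to 18.5 TPM in control. In tumor its range lay below that of Runx1, whereas in control the ranges of Runx1 and Runx2 overlapped. Edn2 ranked 6 in tumor by its mean, at 0.58 to 1.09 TPM, and 4 in control, at 4.97 to 5.65 TPM. Btc, Tnfaip6, Ptgs2 and Snap25 had overlapping ranges with their neighbours in the tumor group, between 0.13 and 3.94 TPM. By their means Has2 and Sult1e1 were lowest in both groups, with Has2 at 0.06 to 0.22 TPM in tumor and 0.18 to 0.29 TPM in control. The ranges of Has2 overlapped those of Sult1e1, Ptgs2 and Snap25 in tumor and that of Snap25 in control. In control the lowest Has2 value and the highest Sult1e1 value were both 0.18 TPM.

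The genes differed in their pattern across libraries. The most alike pair was Runx2 and Edn2, with a root mean square difference of mean-centred log2 CPM of 0.37 over the 6 libraries, and the least alike was Edn2 and Btc, with 1.75. Ptgs2 and Tnfaip6 had their highest level in control replicate 2, whereas Runx1 and Runx2 had their lowest control level there. Among 15128 other genes, the one most like Runx2 by this measure was Tmem178, at 6.86, 5.44 and 7.20 CPM in tumor and 54.5, 36.5 and 51.3 CPM in control, with a difference of 0.26. The nearest gene to Edn2 was Kl, the gene of klotho, with 0.26, and that to Cebpb was Adgrb2, with 0.05. Those of Runx1, Ptgs2, Tnfaip6 and Btc were Fbxo2, S100b, Hspb7 and Aox4, with 0.17, 0.26, 0.15 and 0.18. Likeness over 6 libraries says nothing of shared function.

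**Figure D4:**
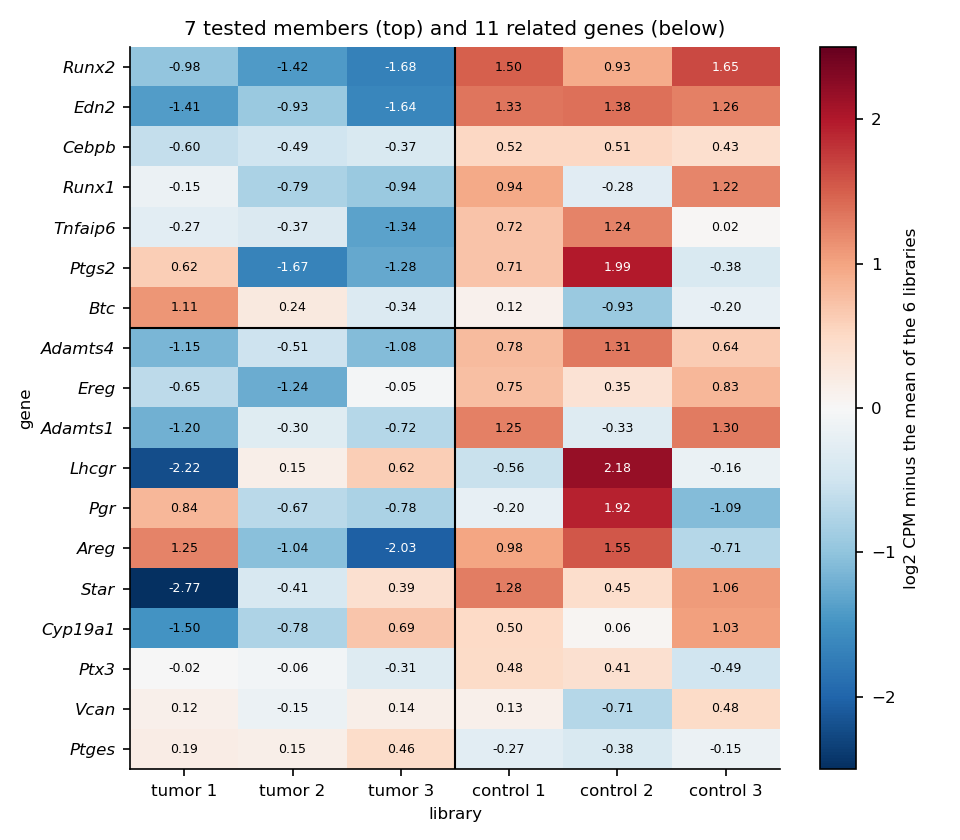
Log2 CPM of 7 tested ovulatory response genes (above the line) and 11 related genes (below it) in each library, minus the gene's mean over the 6 libraries, tumor libraries left. Runx2, Edn2, Cebpb, Tnfaip6, Adamts4 and Ereg are below 0 in all tumor and above 0 in all control libraries, while Ptgs2, Lhcgr, Pgr and Areg peak in control replicate 2.

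Of 52 related genes of the ovulation pathway that are not among the 10, 49 were tested, 1 rose, 1 fell and 47 did not pass, where 7.71% of all genes tested changed. Adamts4, a protease that cleaves versican in the cumulus matrix, fell. It stood at 4.94, 7.73 and 5.18 CPM in tumor replicates 1, 2 and 3, against 19.1, 27.6 and 17.3 CPM in control replicates 1, 2 and 3, without overlap. Its log2 fold change was -1.84 ± 0.27 (SE) with an edgeR adjusted p of 0.0339. Ptges, the prostaglandin E synthase that acts after PTGS2, rose. It stood at 158.6, 154.3 and 190.8 CPM in tumor replicates 1, 2 and 3, against 115.4, 106.7 and 125.1 CPM in control replicates 1, 2 and 3. The groups did not overlap, and the log2 fold change was 0.54 ± 0.12 (SE) with an edgeR adjusted p of 0.0467. This call was lost without the low-count filter, with an adjusted p of 0.0523, and with 1 library left out in all cases but tumor replicate 1, with adjusted p of 0.0527 to 0.159. The call of Adamts4 was lost without tumor replicate 2 or 3 or control replicate 1 or 3, with edgeR adjusted p of 0.0706 to 0.142. The median log2 fold change of the 49 genes was -0.12. Unadjusted p was under 0.05 for 13 of them by edgeR, which is 26.5% of the 49, against 31.0% of all genes tested. DESeq2 called 10 of the 49 with an adjusted p, or 20.4%, against 19.4% of all genes with one.

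None of 5 tested genes of luteinizing hormone, progesterone and cyclic AMP signalling passed, nor did any of 3 tested genes of EGF-like ligands and their receptor. Lhcgr, the luteinizing hormone receptor, showed a log2 fold change of -1.09 ± 0.98 (SE), and Pgr, the progesterone receptor, one of -0.78 ± 0.88, with edgeR adjusted p of 0.493 and 0.599. Both were far highest in control replicate 2, at 917.0 CPM for Lhcgr, against 137.7 and 181.3 CPM in the other control libraries, and at 41.0 CPM for Pgr, against 9.35 and 5.01 CPM. Without that library the log2 fold changes were 0.31 for Lhcgr and 0.64 for Pgr, and neither passed. Ereg, the gene of epiregulin, had -1.31 ± 0.39 (SE) with an edgeR adjusted p of 0.0828, and its groups did not overlap. Areg, the gene of amphiregulin, had -0.98 ± 1.23 (SE) with 0.635. It lay under the level of 3 counts in tumor replicates 2 and 3 and at that level in control replicate 3.

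None of 5 tested cumulus matrix genes passed, and 6 of 7 proteases did not. Ptx3, the pentraxin that binds TSG-6, showed a log2 fold change of -0.34 ± 0.34 (SE) and Vcan, the proteoglycan versican, one of -0.003 ± 0.29, whose sign differed between alternatives, with edgeR adjusted p of 0.549 and 0.997. Adamts1, the progesterone-regulated protease of ovulation, stood at 33.7, 63.2 and 47.3 CPM in tumor replicates 1, 2 and 3, against 185.7, 61.9 and 191.5 CPM in control replicates 1, 2 and 3. As for Runx1, control replicate 2 lay among the tumor libraries, and the edgeR adjusted p was 0.0870 with a log2 fold change of -1.61 ± 0.48 (SE). Without control replicate 2 it was -1.93 and passed, with an edgeR adjusted p of 0.0260. By DESeq2 Adamts1 passed with all 6 libraries, with an adjusted p of 0.00136. Adcyap1, the gene of the peptide PACAP and chosen for mention after its values were seen, had 0.052, 0 and 0 CPM in tumor replicates 1, 2 and 3 and 4.22, 0.214 and 4.36 CPM in control replicates 1, 2 and 3. It was high in the same 2 control libraries and was not tested, since fewer than 3 libraries passed the filter.

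None of 6 tested genes of the endothelin system, of 7 transcription factors, of 5 exocytosis genes, of 3 luteinization genes or of 2 genes of estrogen synthesis passed. Edn1, Edn3 and the receptor gene Ednra were chosen for mention after their values were seen. Edn1 stood at -0.32 on the log2 fold change scale and Ednra at 0.23, with edgeR adjusted p of 0.677 and 0.166. Edn3 had 0.80 ± 0.26 (SE) with an edgeR adjusted p of 0.0962. Edn3 and Ednra were higher in tumor without overlap, as were 19.8% of all genes tested. Cyp19a1, the aromatase that makes the substrate of SULT1E1, had -0.83 ± 0.60 (SE), and Star, which brings cholesterol into mitochondria for steroid synthesis, had -1.41 ± 0.74, with edgeR adjusted p of 0.395 and 0.250. The luteinization gene Cyp11a1, chosen for mention after its values were seen, had -1.93 ± 0.66 (SE) with an edgeR adjusted p of 0.112. Star and Cyp11a1 were lower in tumor without overlap, as were 18.4% of all genes tested. Cyp19a1 and Star each passed in only 1 of 19 alternatives, with the oviduct markers as a covariate. There they were at -1.74 with an edgeR adjusted p of 0.0203 for Cyp19a1 and at -2.90 with 0.0183 for Star. With the adipocyte markers as a covariate they were at -0.83 and -0.57, with edgeR adjusted p of 0.721 and 0.842.

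**Figure D5:**
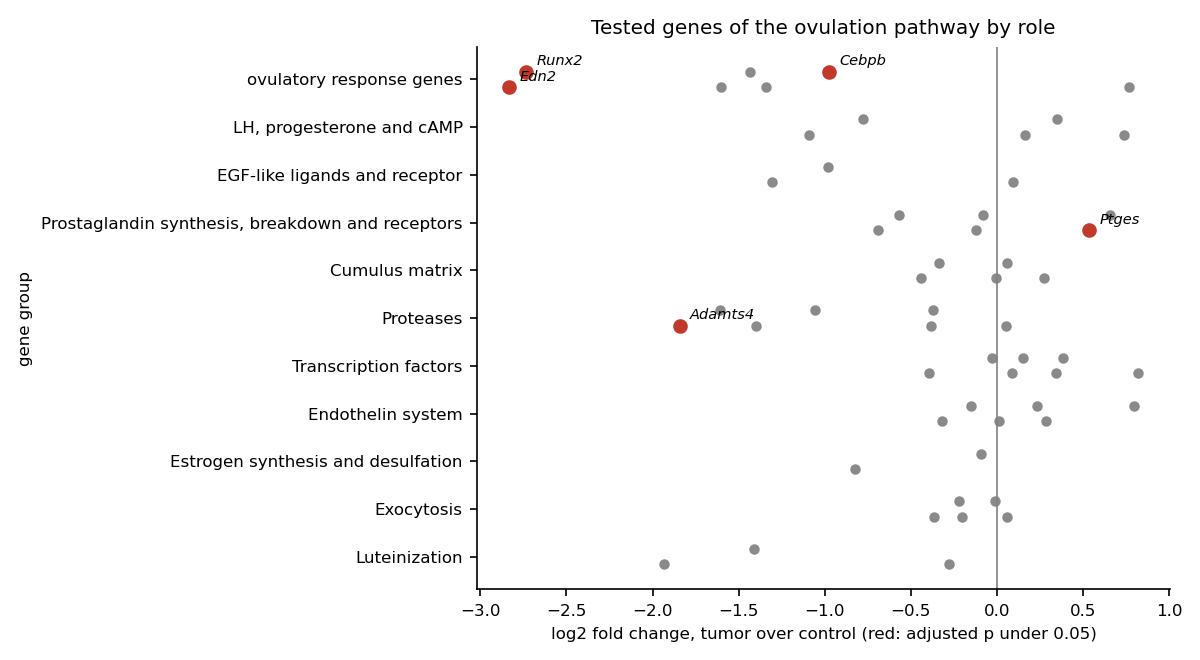
Log2 fold changes, tumor over control, of the 7 tested ovulatory response genes (top row) and 49 tested related genes by role, red where edgeR's adjusted p was under 0.05. The red points are Runx2, Edn2 and Cebpb in the top row, Adamts4 among proteases and Ptges among prostaglandin genes.

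Summed luteal and smooth muscle markers were lower in every tumor library than in every control library, whereas the sums of theca and stroma markers overlapped between the groups. Of 6 luteal markers, 2 fell and none rose, and their summed level lay between 2510 and 8094 CPM in tumor and between 13530 and 15260 CPM in control. Of 4 smooth muscle markers, 2 fell, with sums of 1061 to 1711 CPM in tumor and 1884 to 2143 CPM in control. Of 6 theca and stroma markers, 2 fell, with sums of 1644 to 4026 CPM in tumor and 3182 to 5235 CPM in control. The luteal list shares Lhcgr, Star and Cyp11a1 with the related genes, and the theca and stroma list shares Star with both. The part of luteal, stromal and muscle cells in the falls of Runx2, Edn2 and Cebpb was not tested.

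Fat markers varied widely between tumor libraries, and oviduct markers varied between libraries within both groups. Adipocyte markers summed to 6803, 593.0 and 2727 CPM in tumor replicates 1, 2 and 3 and to between 411.2 and 581.2 CPM in control. Oviduct markers summed to 1824, 133.0 and 52.7 CPM in tumor replicates 1, 2 and 3 and to 2077, 1989 and 438.5 CPM in control replicates 1, 2 and 3. With the mean of the adipocyte markers as a covariate the log2 fold changes of Runx2, Edn2 and Cebpb were -2.87, -2.45 and -0.94, with edgeR adjusted p of 0.266, 0.271 and 0.266, and no gene of the whole table passed (2331 had an unadjusted p under 0.05). With that of the oviduct markers they were -2.65, -2.80 and -1.03, and all 3 passed, with edgeR adjusted p of 0.0120, 0.0143 and 0.00791. Macrophage markers, in cells that also use Cebpb and Ptgs2, summed to between 143.2 and 210.0 CPM in tumor and between 173.9 and 210.1 CPM in control. Endothelial markers summed to between 331.4 and 393.0 CPM in tumor and between 386.7 and 409.3 CPM in control. Neutrophil markers summed to 7.69 CPM in tumor replicate 1 and to between 0.700 and 1.93 CPM in the other 5 libraries, with Ly6g, Mpo and Retnlg at 0 in at least 1 library.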

How the data were processed

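RNA of ovaries was sequenced in 3 tumor and 3 control libraries as single-end reads of 50 bases, per the labels' protocols. The submitters' processing notes name RSEM 1.2.12, Bowtie2 2.2.5 and HISAT2 2.0.4 with the build GRCm38.p6, without saying which did what; library strand is not given in the sources used here. Per gene and per transcript, the authors deposited estimated counts, of which 39.2% of gene values above 0 were not whole (tolerance 1e-06). FPKM and TPM values are deposited per gene, per the file headers. The authors' deposited comparison gives a log2 fold change with DESeq2's p-value and q-value, per the file headers; its sign runs as tumor over control. A further 30 columns of per-library values, which repeat or split these, were not used.

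Estimated counts were rounded, filtered with filterByExpr (minimum count 10), scaled by TMM factors (0.962 to 1.054) and tested with edgeR 4.0.16 in R 4.3.3: quasi-likelihood F test, robust dispersion, group as the only term, Benjamini-Hochberg adjustment, threshold 0.05. The SE of a log2 fold change is its size divided by the square root of F. Principal components, marker covariates and likeness used log2 CPM with a prior count of 2. DESeq2 1.42.0 and limma 3.58.1 served alternatives. The edgeR script was tested on simulated data. No 2 libraries agreed within sampling noise (chi-square per degree of freedom at least 12.6). No label says whether the replicate numbers pair the samples, and the main test used no pairing. The members and the lists were chosen with earlier results of these data known. All 10 members are named, with each related gene that passed and 9 fixed related genes; the likeness gene is the nearest tested gene with a curated symbol. Other related genes named were chosen after their values were seen. Gene and transcript positions came from the deposited annotation and GENCODE M21, both GRCm38; promoter sequences came from RefSeq, GRCm38.p6.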

Additional observations from a re-analysis of the deposited data

How the results depend on the processing

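The direction of the 7 tested ovulatory response genes, of Adamts4, Ptges and Ereg was kept in each of the 19 alternatives run. The count of the 10 genes that changed, 3, was 0 with a replicate block and with the adipocyte covariate (unadjusted p under 0.05 for 5 and 4 genes), was 0 to 4 with 1 library left out (3 to 5 genes where it was 0), and was 3 or 4 in the others. The block and the pairing check bear on samples that share a number only: deviations of tumor and control libraries with the same number correlated at 0.24, -0.21 and 0.53 for numbers 1, 2 and 3, control replicate 2 correlated best with tumor replicate 1, and with the block 0 genes of the whole table passed edgeR (4233 with an unadjusted p under 0.05), while Runx2, Edn2 and Cebpb had log2 fold changes of -2.73, -2.86 and -0.98. The count over all genes, 1217, was 3029 with DESeq2, 778 with limma-trend on log2(FPKM + 1) without a filter, 518 after the length correction, 778 after the GC correction, 0 with the adipocyte and 2496 with the oviduct covariate, and 0 to 2605 with 1 library left out. The count of related genes, 2, was 10 with DESeq2, 1 without the low-count filter, 0 with the block or the adipocyte covariate, 8 with the oviduct covariate and 0 to 8 with 1 library left out. The median of the 7 genes, -1.43, was -0.90 on the log2(FPKM + 1) scale. The adjusted p of Ptges and Adamts4 was 0.0939 and 0.0796 with the block and 0.330 and 0.305 with the adipocyte covariate. Vcan, at -0.003 in the report, was positive at 0.00806 with DESeq2, 0.0109 with RLE and 0.0108 with upper-quartile factors, 0.000242 with the stricter filter, 0.0700 with the block, 0.11, 0.12 and 0.11 on the FPKM scales, and -0.23 to 0.31 with 1 library left out. Lhcgr was -1.62 to 0.31 and Pgr -1.51 to 0.64 with 1 library left out, both positive without control replicate 2, and Pgr was 0.0526 with the oviduct covariate. The cause of these shifts was not tested. Length and GC values covered 97.78% of tested genes. Depth limits Has2, Sult1e1, Snap25 and, in tumor, Edn2, Ptgs2 and Tnfaip6, each with at least 1 library under 10 reads.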
